A study of Rattus norvegicus with 8 samples.

Results

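The nuclear genes of the mitochondrial ribosome and of mitochondrial protein import were examined in the orbital and the global layer of extraocular muscle, which rotates the eyeball, from adult rats. Members were all genes whose single annotated symbol began with Mrpl, Mrps, Timm or Tomm, each taken by its brightest probe set over the 8 arrays. This gave 94 of the 10411 genes with 1 symbol: 45 of the large ribosomal subunit (Mrpl), 26 of the small subunit (Mrps), 14 Timm and 9 Tomm genes. Of these, 93 were bright enough to be tested, all but Timm17b, a channel subunit of the inner membrane, whose intensity was 7.4 to 43.2. Fibres of the orbital layer, which faces the bone, and of the global layer, which faces the eyeball, were isolated with a laser microdissector. There were 4 arrays of each layer, each taken here as 1 capture and numbered within a layer. Captures 1 and 2 of each layer carry R2 in their titles and captures 3 and 4 carry R3, and what these stand for is not given in the labels. Within a layer and prefix the titles number the captures 1 and 2. Orbital captures 3 and 4 instead carry OL1 and OL1.2, and whether they are repeats of 1 capture is not given. The sources used here do not give the strain, sex, number of animals or fibres per capture. Should captures of 1 layer share an animal, or orbital captures 3 and 4 be repeats of 1 capture, the p-values are too small. Should animals be shared across layers, a fit without them as a block can also miss differences.

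Mitochondria keep a small genome that encodes core subunits of the respiratory chain, and translate it on a ribosome of their own. All proteins of that ribosome are encoded in the nucleus, made in the cytosol and imported. The outer membrane complex (Tomm proteins) lets precursors in, small chaperones of the intermembrane space (such as Timm8, Timm9, Timm10 and Timm13) escort hydrophobic ones, and inner membrane complexes (around Timm22 or Timm23) insert or translocate them. Extraocular muscle is rich in mitochondria, and orbital fibres are known for the highest content.

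Few of these genes differed between the layers, and Mrps6 of the small subunit had the largest difference, 1.31 higher in the orbital layer on the log2 scale. Of 71 ribosomal genes tested, 2 were higher in the orbital layer (Mrps6 and Mrps25), 2 were lower (Mrpl50 and Mrpl15) and 67 did not pass an adjusted p of 0.05. Of 22 import genes tested, 1 was higher (Timm8a1), 1 was lower (Timm29) and 20 did not pass. The 6 of 93 called are 6.45% of the members, near the 7.68% called among all 7163 genes tested (4.09% higher and 3.59% lower). The median log2 difference, orbital minus global, was -0.11 over the ribosomal genes, -0.06 over the import genes and 0.02 over all genes tested. When orbital captures 3 and 4 were left out together, the ribosomal median was 0.04, the 1 of 25 alternatives in which its sign turned. Within R2 alone, which also lacks these captures, it stayed below 0. Within R3 alone the import median was 0.0060. Ribosomal calls fell from 4 to 2 without global capture 1, orbital capture 1 or orbital capture 4, and to 1 without global capture 3 or 4. Import calls fell from 2 to 1 when any capture was left out except global capture 4 and orbital capture 2. Each intensity is relative to its array, and in tissue captures fewer cells of a type and less RNA per cell cannot be told apart.

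**Figure D1:**
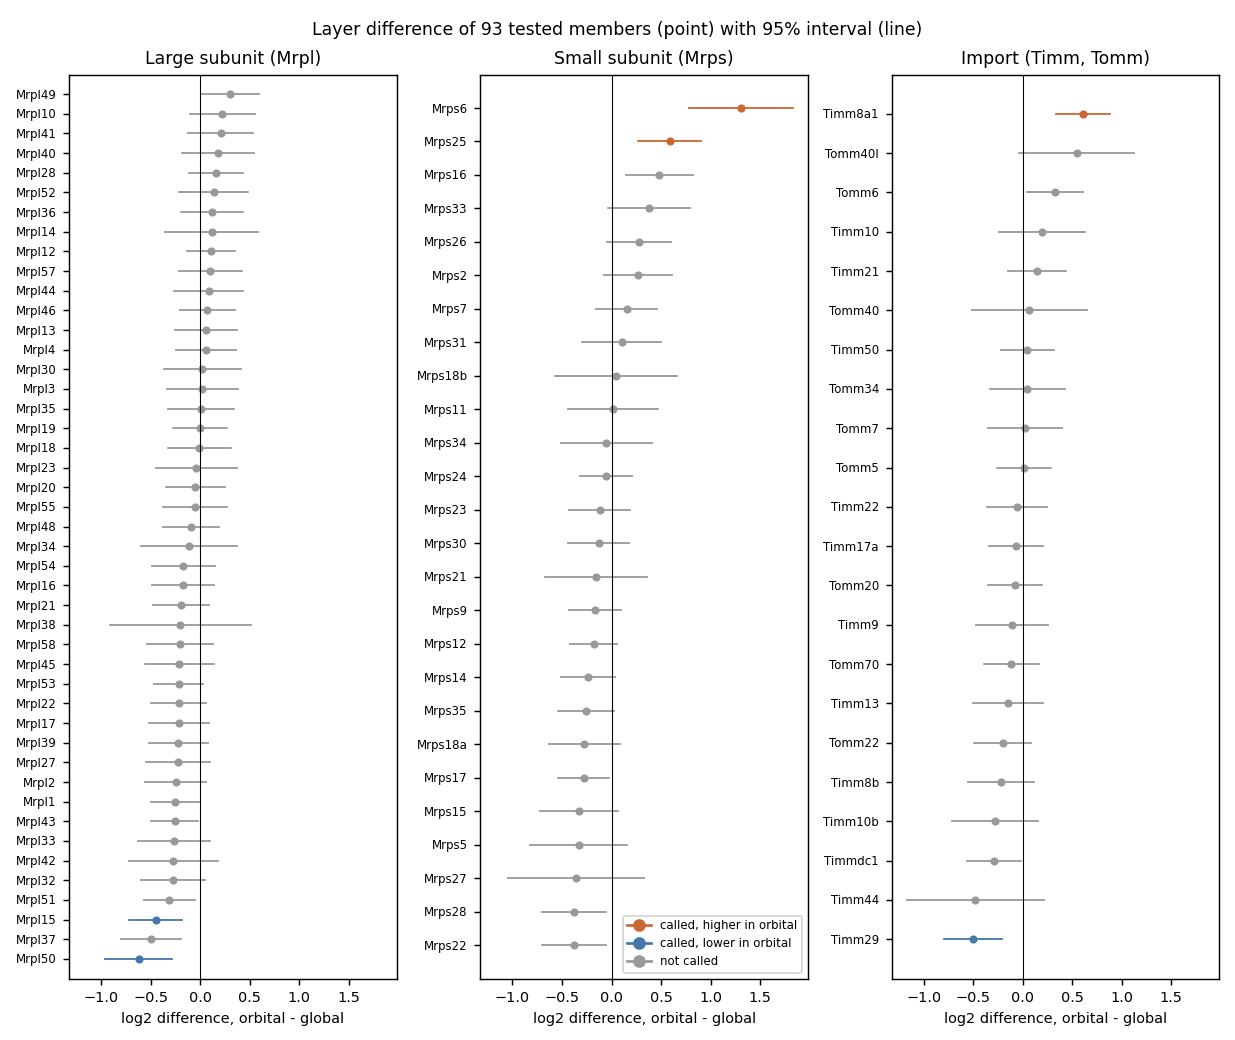
Log2 difference between layers (orbital minus global, x axis) of the 93 tested genes, ordered by size within the large subunit, the small subunit and import, with 95% intervals as lines. Mrps6 lies furthest from 0 at 1.31, the 3 called lower lie between -0.62 and -0.45, and 87 genes were not called.

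The precision was enough to bound most of the tested members, if the captures are independent. The median standard error (SE) of a difference was 0.15 on the log2 scale. For 89 of 93 genes the 95% interval lay within a 2-fold change in either direction (a log2 difference of -1 to 1), and for 44 it lay within -0.5 to 0.5. Besides Mrps6, the intervals of Mrps27, Timm44 and Tomm40l reached past 1 of these bounds. The middle 50% of the differences ran from -0.24 to 0.09 for ribosomal genes, from -0.19 to 0.06 for import genes and from -0.18 to 0.23 for all genes. A difference of at least 0.5 in size was seen in 6 of 93 members (6.45%) and in 15.4% of all genes tested. Over all 7163 genes tested, 6121 intervals lay within -1 to 1 and 2020 within -0.5 to 0.5.

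Promoters of these genes often held the letters of at least 1 of 3 motifs known from nuclear genes for mitochondrial proteins. The windows searched, on both strands, ran from 250 bases before to 50 after the start in RefSeq (GRCr8), and 78 of the 94 genes matched one. At least 1 motif was in 43 of 78 windows (55.1%), against 30.4% of the windows of genes tested here. The ETS motif CCGGAAG, of the kind bound by GABP, was in 26 of 78 windows (33.3%), against 18.3% of 6023 windows of genes tested here and 9.22% of all 27457 windows. The NRF1 motif, GCGC and TGCGC with any 1 base between them, was in 12 (15.4%), against 10.9% and 4.71%. The YY1 motif AAGATGGC was in 16 (20.5%), against 5.94% and 3.44%, and stood in 14 of 57 ribosomal windows but 2 of 21 import windows. Matches of different motifs were counted separately, also where they overlapped. The stretches below run from 120 bases before to 10 after the start, with motif matches in capitals. The first 4 are the called genes that matched a window. The last 3 are named genes that were not called, picked because they hold ETS or NRF1 letters. Other named genes that were not called, such as Mrpl1, Mrpl12 and Tomm6, held none of the 3 motifs. The stretches shown are therefore no comparison of called with uncalled genes.
Mrps6 (GRCr8, chr11:44778547-44778676, plus strand): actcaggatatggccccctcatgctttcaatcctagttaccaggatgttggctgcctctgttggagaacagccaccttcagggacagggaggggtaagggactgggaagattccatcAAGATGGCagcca
Mrps25 (GRCr8, chr4:126237203-126237332, minus strand): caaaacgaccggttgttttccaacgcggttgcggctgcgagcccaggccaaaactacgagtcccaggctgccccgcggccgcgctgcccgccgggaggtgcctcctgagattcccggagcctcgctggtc
Timm8a1 (GRCr8, chrX:102015435-102015564, minus strand): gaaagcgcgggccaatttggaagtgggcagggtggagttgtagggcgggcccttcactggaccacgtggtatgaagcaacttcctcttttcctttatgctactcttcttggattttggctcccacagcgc
Mrpl50 (GRCr8, chr5:68668078-68668207, minus strand): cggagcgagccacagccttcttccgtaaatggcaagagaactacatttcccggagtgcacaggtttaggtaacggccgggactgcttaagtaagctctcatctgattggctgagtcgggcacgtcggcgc
Mrpl53 (GRCr8, chr4:117172923-117173052, plus strand): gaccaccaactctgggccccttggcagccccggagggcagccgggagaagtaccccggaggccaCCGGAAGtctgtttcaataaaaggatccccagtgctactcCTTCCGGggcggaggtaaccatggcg
Tomm22 (GRCr8, chr7:113107186-113107315, plus strand): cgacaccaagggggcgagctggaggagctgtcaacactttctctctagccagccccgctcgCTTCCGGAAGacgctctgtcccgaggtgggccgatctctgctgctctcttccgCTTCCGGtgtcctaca
Tomm20 (GRCr8, chr19:71832411-71832540, minus strand): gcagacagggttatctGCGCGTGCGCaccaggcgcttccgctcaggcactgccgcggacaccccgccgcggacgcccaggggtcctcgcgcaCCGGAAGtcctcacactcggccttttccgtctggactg
In Mrps6 the YY1 letters lie across the start, from position -3, and in Mrpl50 they begin at position 27, beyond the stretch shown. Mrps25 and Timm8a1 show no capitals, and Tomm22 holds 3 ETS matches of which 2 overlap. These matches describe the windows and were not related to the layer difference.

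Among small subunit genes, Mrps6 had the largest difference of all members. The protein is the counterpart of bacterial ribosomal protein S6. Its intensity in global captures 1 to 4 was 973, 1118, 628 and 713, and in orbital captures 1 to 4 it was 3327, 1922, 2091 and 1364. Every orbital capture lay above every global one, with orbital capture 1 the highest. The orbital mean was 2176 ± 828 (SD, n = 4) and the global mean 858 ± 227. The log2 difference was 1.31 ± 0.24 (SE, 95% interval 0.78 to 1.83, limma adjusted p = 0.00513). The call held on leaving out each of the 8 captures in turn (adjusted p 0.00188 to 0.0183), and the difference was 1.28 within R2 and 1.33 within R3. In the current rat gene table (GRCr8) the gene Slc5a3, a myo-inositol transporter, lies inside the Mrps6 gene model, and no probe set of this array is annotated to Slc5a3. Which part of that locus the Mrps6 probe set reads was not tested.

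Mrps25, another small subunit protein, was also higher in the orbital layer. It read 186, 244, 188 and 183 in the global captures and 345, 267, 275 and 314 in the orbital captures. The layers did not overlap, and global capture 2 came nearest to the orbital range. The difference was 0.59 ± 0.15 (SE, adjusted p = 0.0266). Leaving out any of global captures 1, 3 and 4 and orbital captures 1 and 4 ended the call (adjusted p 0.0638 to 0.0825).

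The other 24 small subunit genes did not pass, with differences from -0.38 to 0.48. Mrps16, the counterpart of bacterial S16, differed by 0.48 ± 0.16 (adjusted p = 0.0872), and orbital capture 3 (234) lay below global capture 2 (248). Mrps22, Mrps17 and Mrps35 were lower in all 4 orbital captures than in all 4 global captures without passing. They are 11.5% of the 26 small subunit genes, against 6.80% of all genes tested. Mrps22 read 290.4, 224, 224 and 233 in the global and 206, 189, 150.1 and 203 in the orbital captures (-0.38, adjusted p = 0.163). Mrps17 differed by -0.28 (adjusted p = 0.192) and Mrps35 by -0.25 (adjusted p = 0.292). Mrps12, the counterpart of bacterial S12 and the brightest small subunit probe set besides Mrps6, differed by -0.18, with an interval of -0.42 to 0.06. The 26 genes had a median of -0.12 and a mean near 0 (-0.0023).

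**Figure D2:**
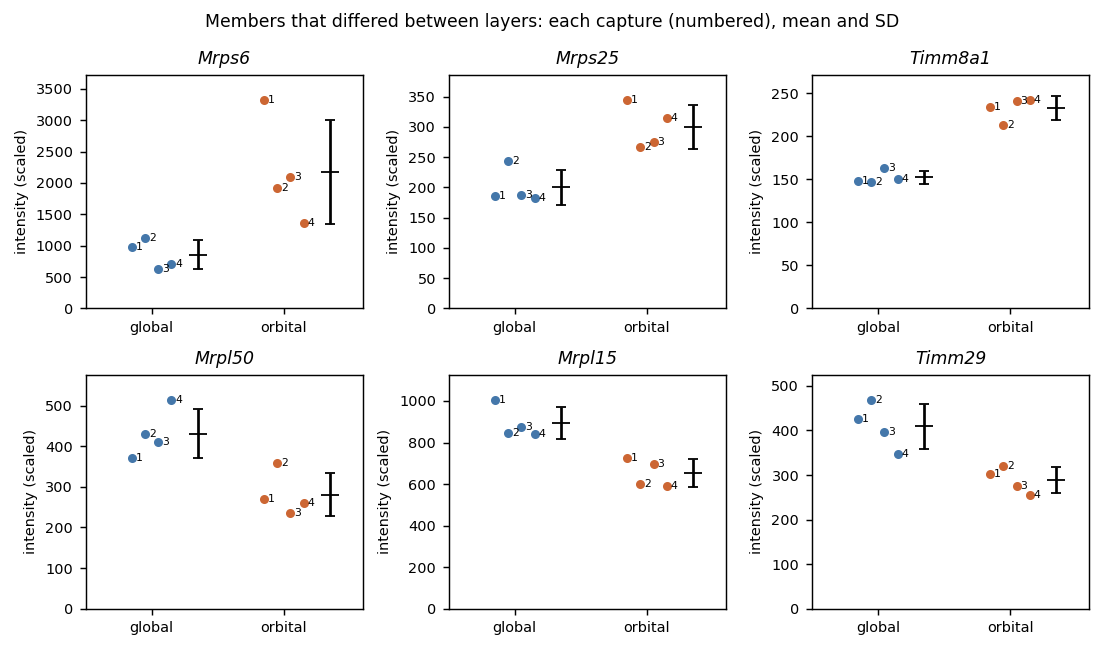
Intensity (scaled by the authors, linear axis from 0) of the 6 members that differed, for each numbered capture of the global (blue) and orbital (orange) layer, with mean and SD in black. Mrps6, Mrps25 and Timm8a1 were higher in every orbital capture, and Mrpl50, Mrpl15 and Timm29 lower in every orbital capture.

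Both large subunit genes that passed were lower in the orbital layer. Mrpl50 read 370.2, 430.3, 409.6 and 514 in the global captures and 270.2, 357.5, 236 and 260.4 in the orbital captures. The layers were separated by the small gap between global capture 1 and orbital capture 2. Its difference was -0.62 ± 0.16 (SE, adjusted p = 0.0269), -0.36 within R2 and -0.89 within R3. Without any of global captures 3 and 4 and orbital captures 1, 3 and 4 it did not pass (adjusted p 0.0557 to 0.0845). A second, dimmer Mrpl50 probe set read 152 to 180.2 in the global and 92.3 to 179 in the orbital captures (-0.14, adjusted p = 0.749), so the probe sets of this gene disagree in size.

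Mrpl15, the counterpart of bacterial L15, read 1005, 848, 877 and 839.5 in the global captures and 724, 601, 698 and 591 in the orbital captures. All orbital captures lay below all global ones. The difference was -0.45 ± 0.12 (SE, adjusted p = 0.0409), and it did not pass once any capture except orbital capture 1 was removed (adjusted p 0.0548 to 0.127). Mrpl37 came closest among the rest, with -0.50 ± 0.14 (adjusted p = 0.0516). It read 1417, 1064, 1389 and 1582.5 in the global and 900.2, 879.7, 944 and 1116 in the orbital captures, where orbital capture 4 exceeded global capture 2. It passed under 7 of 25 alternative settings. In the gene table Mrpl37 overlaps its neighbour Ssbp3.

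The other 43 large subunit genes, Mrpl37 included, did not pass and spanned -0.50 to 0.30. Mrpl51, Mrpl43, Mrpl1, Mrpl53 and Mrpl39 were each lower in all 4 orbital captures, with differences of -0.31, -0.26, -0.25, -0.22 and -0.22 and adjusted p from 0.142 to 0.383. Mrpl43, one of the brightest, averaged 1535 ± 89.5 (SD, n = 4) in global and 1284 ± 56.1 in orbital captures. Mrpl51 is read by 3 further probe sets, of which 1 was too dim to test and 2 differed by -0.57 and -0.04, without passing. Mrpl12, which also binds the mitochondrial RNA polymerase, went the other way without passing, at 0.11 (interval -0.13 to 0.36). No large subunit gene (0 of 45) was higher in all 4 orbital captures, against 7.48% of all genes tested. Lower in all 4 were 7 of 45 (15.6%), the 2 called included, against 6.80% of all genes tested.

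Over all 93 members, the layers did not overlap for 16 (17.2%), near the 14.3% of all genes tested. Of these, 12 were lower and 4 higher in the orbital layer, which is 12.9% and 4.30% of the members, against 6.80% and 7.48% of all genes. Differences below 0 were found for 55 of 93 members (59.1%) and for 46.8% of all genes.

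Among the Timm genes, Timm8a1 had the most even separation of the members that passed. Its product is a small chaperone of the intermembrane space, and the human counterpart is the gene of a deafness and dystonia syndrome. It read 148, 147, 163 and 150.4 in the global captures and 234, 212, 241 and 242 in the orbital captures. The lowest orbital capture was well above the highest global one. The means were 232.5 ± 13.9 (SD, n = 4) and 152 ± 7.45, a difference of 0.61 ± 0.13 (SE, adjusted p = 0.0101). The call held without each of the 8 captures (adjusted p 0.0165 to 0.0325). A second Timm8a1 probe set was too dim to test, at 9.7 to 38.3, and with the mean of both the difference was 0.50 (adjusted p = 0.228).

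Timm29, a subunit of the TIM22 complex that inserts carrier proteins into the inner membrane, was lower in the orbital layer. It read 425.5, 469, 397 and 347 in the global captures and 302.5, 320.2, 275 and 254 in the orbital captures. The layers did not overlap, with global capture 4 the lowest of its layer. The difference was -0.50 ± 0.14 (SE, adjusted p = 0.0391). It did not pass when global capture 1, 2 or 3 or orbital capture 1, 3 or 4 was absent (adjusted p 0.0679 to 0.102), nor with the title prefix as a random block (0.0502). Its gene model overlaps that of Yipf2, as those of Timm8b, Tomm20 and Tomm40l, described next, overlap Nkapd1, Rbm34 and Nr1i3, and whether their probe sets also read these neighbours was not tested.

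The other 11 Timm genes tested did not pass. Timmdc1, an assembly factor of respiratory complex I that carries the name without being part of an import complex, was lower in all 4 orbital captures (-0.29, adjusted p = 0.203). Timm44, which tethers the import motor to the inner membrane channel, was dim (22.2 to 58.9) and differed by -0.48 with a wide interval of -1.17 to 0.22. Timm8b, the relative of Timm8a1 and the brightest Timm probe set, read 2074, 1931, 1757 and 1529 in the global and 1719, 1666, 1166 and 1759 in the orbital captures (-0.22, adjusted p = 0.461). The chaperones Timm9, Timm10 and Timm13 differed by -0.11, 0.19 and -0.15, and the channel proteins Timm22 and Timm17a by -0.06 and -0.07.

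No Tomm gene passed (0 of 9 by limma, 1 with an unadjusted p under 0.05), and their differences ran from -0.20 to 0.55. An unadjusted p under 0.05 was reached by 17 of 93 members (18.3%) and by 21.9% of all genes tested. That 1 was Tomm6, a small subunit of the outer membrane channel complex, which read 171, 165.5, 155 and 152 in the global and 219.6, 183, 214 and 194 in the orbital captures. Every orbital value was above every global one (0.33 ± 0.13, adjusted p = 0.167). Tomm20, the receptor for presequences and the brightest of these probe sets, averaged 2794 ± 355 (SD, n = 4) in global and 2633 ± 81.8 in orbital captures (-0.08, interval -0.35 to 0.19). Its second probe set differed by -0.03. The receptors Tomm22 and Tomm70 differed by -0.20 and -0.11, and the channel Tomm40 by 0.07. Tomm40l had the largest difference (0.55 ± 0.27, adjusted p = 0.265), at intensities of 26.1 to 63.9 near background. Its second probe set, too dim to test, went the other way, with 35.9 ± 19.8 (SD, n = 4) in global and 32.4 ± 13.9 in orbital captures.

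**Figure D3:**
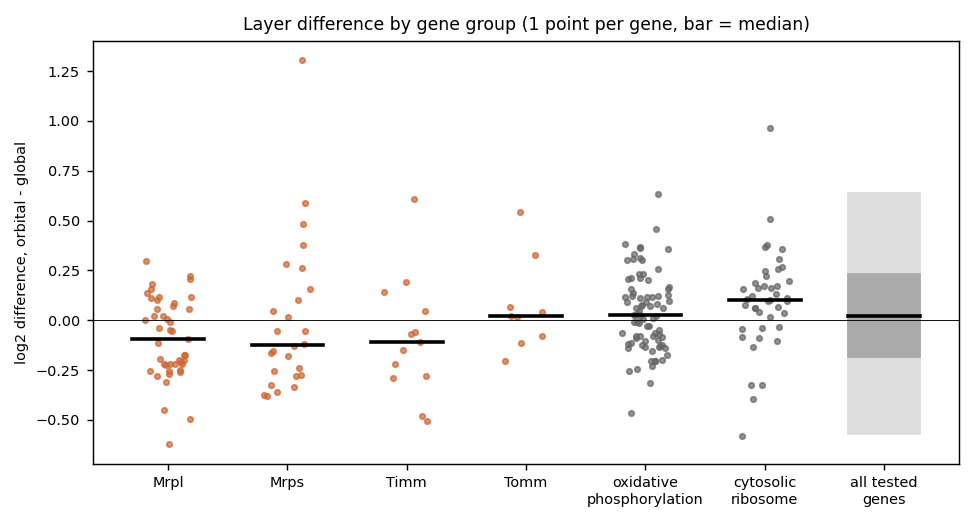
Log2 difference (orbital minus global) of each tested gene (points) by group, with the median as a black bar. For all 7163 genes the dark band holds the middle 50% and the light band runs from the 5th to the 95th percentile (-0.57 to 0.64). The medians of Mrpl (-0.09), Mrps (-0.12) and Timm (-0.11) lie below 0 and that of Tomm is 0.02.

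Against the gene groups most like these, the members had lower median differences. Oxidative phosphorylation genes, taken by prefix, had a median of 0.03 with 2 of 82 called (2.44%), and cytosolic ribosomal proteins a median of 0.10 with 1 of 42 called (2.38%). Over all genes tested the median was 0.02 and 7.68% were called. Differences below 0 were 60.6% of the mitochondrial ribosomal genes, 43.9% of the oxidative phosphorylation genes and 26.2% of the cytosolic ribosomal genes. These are descriptions of the groups, and the difference between groups was not tested.

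Proteins that work with the members, named without the prefixes, mostly did not pass either. The same holds for all genes tested, of which 7.68% were called and 21.9% had an unadjusted p under 0.05. Of 5 ribosomal proteins without the prefix on the array, 1 fell, Ptcd3, a pentatricopeptide protein of the small subunit. It read 317, 275, 298 and 294 in the global and 253, 145, 211 and 190 in the orbital captures (-0.59 ± 0.16, adjusted p = 0.0451). Dap3 of the same subunit differed by 0.35 (adjusted p = 0.197). Of 15 tested genes for translation factors, mitochondrial tRNA synthetases and ribosome assembly, 0 passed by limma (1 with an unadjusted p under 0.05), that 1 being Lrpprc, a stabiliser of mitochondrial mRNA (-0.37, adjusted p = 0.1503). Noa1, a GTPase of ribosome assembly, was dim (-0.70, adjusted p = 0.335). Of 18 import partners 0 passed (3 with an unadjusted p under 0.05), and Oxa1l, the insertase for newly made inner membrane proteins, was higher in all 4 orbital captures (0.35, adjusted p = 0.110). The chaperone gene Dnaja1 differed by 0.35 (adjusted p = 0.162). Of 8 regulators of mitochondrial biogenesis and genome upkeep 0 passed (2 with an unadjusted p under 0.05). These were Polg, the mitochondrial DNA polymerase (-0.51, adjusted p = 0.0945), and Ppargc1a, a coactivator of mitochondrial biogenesis (0.92 ± 0.35, adjusted p = 0.145, with orbital capture 3 at 36.8 and the others at 75.6 to 121).

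Of 9 abundant mitochondrial membrane and matrix genes, 1 fell and 1 rose by limma (22.2% called, against 7.68% of all genes tested). An unadjusted p under 0.05 was reached by 4 of them. Vdac1, the main outer membrane channel for metabolites, read 1416, 1478, 2104 and 1895 in the global and 667.5, 732, 475 and 953 in the orbital captures (-1.31 ± 0.20, adjusted p = 0.00138). Slc25a5, an ADP/ATP carrier that reaches the inner membrane through TIM22, averaged 1200.2 ± 80.6 (SD, n = 4) in orbital and 687 ± 109 in global captures (0.82 ± 0.13, adjusted p = 0.00245). Both were separated without overlap, in opposite directions. The other 7 did not pass. Vdac2, Vdac3, Immt and Phb2 differed by -0.43, -0.33, -0.25 and -0.15, and Slc25a3, Cs and Slc25a4 by 0.20, 0.04 and 0.0065.

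The mean level of the members also varied between captures. Each gene was set against its own mean log2 value over the 8 captures and the deviations were averaged. For the 71 ribosomal genes this gave 0.08, 0.05, 0.03 and -0.04 in global captures 1 to 4 and 0.08, -0.0042, -0.11 and -0.07 in orbital captures 1 to 4. Orbital captures 3 and 4 were the lowest, and orbital capture 1 was as high as global capture 1. For the 22 import genes the values were 0.06, 0.02, 0.03 and -0.06 in the global and 0.09, -0.04, -0.05 and -0.05 in the orbital captures. Within them the orbital minus global means were -0.09 for Timm and 0.07 for Tomm, against 0.03 over all genes tested. Within R3 they were -0.15 and 0.13. The Tomm mean includes the dim Tomm40l (0.55), and the median Tomm difference was 0.02. The mean in captures titled R3 minus that in R2 was -0.10 for ribosomal and -0.06 for import genes. It was -0.10 for oxidative phosphorylation genes, -0.08 for cytosolic ribosomal proteins and 0.0064 over all genes tested. Within R2 the orbital minus global mean was -0.03 for ribosomal and -0.02 for import genes, and within R3 it was -0.09 and -0.03.

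**Figure D4:**
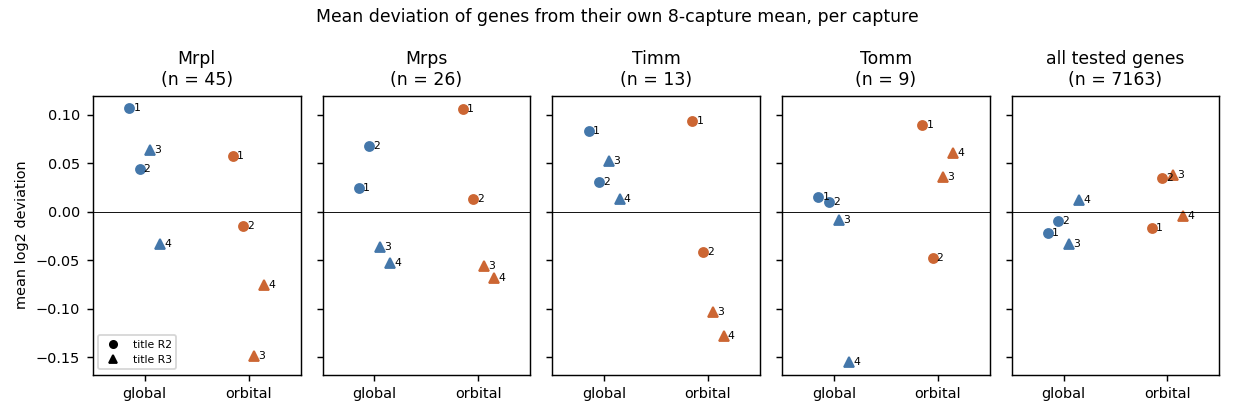
Mean log2 deviation of the genes of each group from their own mean over 8 captures (y axis), for each numbered capture of the global (blue) and orbital (orange) layer, with circles for titles R2 and triangles for R3. Mrpl is lowest in orbital capture 3 (-0.15), Tomm in global capture 4 (-0.16), and all tested genes stay within -0.03 to 0.04.

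Measures of RNA quality, hybridisation and cell types were read from the same arrays. The 3′ to 5′ signal ratio of Gapdh, which rises when RNA is shortened, was 12.9 and 8.64 in orbital captures 3 and 4 and 5.35 to 6.47 in the other 6, while that of actin was 7.69 to 10.7 over all 8. The hybridisation control for cre, added in a fixed amount by the array's usual protocol, read 8966 to 11572 in R2 and 12275 to 17208 in R3. Between layers, 15 of 18 hybridisation control probe sets were higher in the orbital captures. Their median log2 difference was 0.11 (range -0.13 to 0.86), about as large in size as the ribosomal median. Several of them read the same spiked transcript, so they are not separate observations. The cre control above averaged 12620 ± 3285 (SD, n = 4) in orbital and 12782 ± 3090 in global captures. Skeletal muscle markers (7 of 7 on the array) summed to 42333 to 60649 in the global and 39905 to 59035 in the orbital captures. Within this sum Mb was higher (0.82, limma adjusted p = 0.0029) and Ttn lower (-0.70, adjusted p = 0.0098) in the orbital layer, and the rest were not called. Of other cell types, the summed smooth muscle markers (4 of 4 on the array) were 524 to 694 in the global and 223 to 346 in the orbital captures, and the fast fibre markers (5 of 5) 23966 to 41776.5 and 4423 to 11391. Most of the smooth muscle sum was Myh11, the 1 of its markers called (424 ± 66.7 in global and 168 ± 56.6 in orbital captures, SD, n = 4), while Acta2 read 69.6 ± 12.2 and 67.5 ± 13.4. Tagln was lower in all 4 orbital captures without passing (70.65 ± 13.9 and 42.6 ± 9.77, limma adjusted p = 0.0977). Cnn1, too dim to test, read 40.25 ± 13.8 and 20.15 ± 13.9. Of the fast fibre markers, 3 were called lower (Actn3, Mybpc2 and Pvalb). Myh4 overlapped between layers without passing, and Myh1 read 2026 ± 473 in global and 2021 ± 901 in orbital captures. Other sums overlapped between layers. Photoreceptor markers (5 of 7) summed to 64 to 1134 in the global and 435 to 1928 in the orbital captures, and fibroblast markers (6 of 6) to 3554 to 6712 and 4847 to 7506. Endothelial markers (4 of 6) summed to 633.5 to 729 and 669 to 986, Schwann cell markers (3 of 5) to 1108 to 4411 and 2195 to 4517, and adipocyte markers (3 of 4) to 216 to 456 and 202 to 323. Of all these markers, 0 were at an intensity of 0 in any capture. The part of these measures in the member differences was not tested.

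A dependence of the layer difference on the title prefix was not detected. Of 9520 probe sets 0 passed the interaction of layer and prefix in limma (0% called, 290 with an unadjusted p under 0.05), and of 93 members 1 had an unadjusted p under 0.05, the dim Mrpl38 (-0.91 within R2 and 0.52 within R3). With 2 captures per layer and prefix this test has little power.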

How the data were processed

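Per the labels, captured RNA went through T7 amplification before hybridisation to 1-colour Affymetrix RAE230A arrays. The deposited values give an intensity on a linear scale per probe set and array. No source used here names the software that summarised the probes. The authors' arrays share a scale, since their 2% trimmed means differed by at most 0.0039%, and the intensities were used as deposited. The median intensity was 59.0 to 66.4 over the 8 arrays, and their number limits the precision. Intensities of different probe sets are not comparable as transcript amounts.

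After removal of 57 controls from 15923 probe sets, the 9520 whose mean log2 value reached percentile 40 (39.4 in intensity) were tested. On log2(intensity + 1), limma 3.58.1 under R 4.3.3 (lmFit, then eBayes with a trend on intensity) compared orbital with global, 4 captures each, with Benjamini-Hochberg adjustment over all tested probe sets and a threshold of 0.05. Captures were numbered in accession order, and p-values measure only the spread between them. A gene was read from its brightest probe set by mean intensity. The platform annotation, which can be old, gave 1 symbol for 12783 probe sets. Of these 12748 were found in a current table, with 0 symbols changed. The fit was tested on simulated data.

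Members, partner lists and tests were chosen with earlier results of these data known. Named were members that were called or did not overlap between layers, and in each of Mrpl, Mrps, Timm and Tomm the 3 with the largest difference and the 2 brightest (26 genes). Of partner lists, those called and the 2 with the smallest p were named. Timm9, Timm10, Timm13, Timm22, Timm17a, Tomm40, Tomm70, Mrps27 and Mrpl38 fall outside this rule and were picked with their values known. The 7 abundant mitochondrial genes that did not pass also fall outside it and complete their list. Alternatives were other normalizations, pseudocounts, filters, eBayes settings, array weights, the title prefix as a block or alone, each capture left out, orbital captures 3 and 4 averaged, and other ways to read a gene with several probe sets. Orbital captures 1 and 2 alone were added after seeing the data.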

Additional observations from a re-analysis of the deposited data

Results flagged for a closer look

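Among the 26 named members, each with 2 layers of 4 captures, 4 of 52 groups (7.69%) held a capture far from the other 3 by Dixon's test at the 95% level. Chance flags about 1 in 20 such groups. Mrps25 read 244 in global capture 2, with a gap of 0.912 of the range. Mrpl39 read 138 in orbital capture 3 (0.884) and Timm8b 1166 in the same capture (0.843). Mrps22 read 290.4 in global capture 1 (0.864).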

How the results depend on the processing

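The count over all probe sets (705) was 468 to 726 with each capture left out, 745 with the title prefix as a fixed replicate block, 651 with it as a random block, 106 with R2 alone, 166 with R3 alone and 363 with orbital captures 3 and 4 both left out. Ribosomal genes called (4) were 1 to 4 with each capture left out, 1 without the eBayes trend, 6 with the fixed and 4 with the random replicate block, 0 with R2 alone, 1 with R3 alone, 2 with orbital captures 3 and 4 averaged and 1 with both left out. Import genes called (2) were 1 to 2 with each capture left out, 1 without the trend, 2 with the fixed and 1 with the random replicate block, 0 with R2 alone, 0 with R3 alone, 1 with orbital captures 3 and 4 averaged, 1 with probe sets averaged per gene and 0 with orbital captures 3 and 4 left out. Among named members, the fixed block added Mrpl37 and Mrps16 to the calls. Captures of one prefix did not clearly pair across layers, with correlations of their deviations from layer means of -0.0055 to 0.11 within a prefix and -0.13 to 0.045 between prefixes. The ribosomal median was -0.15 to -0.05 with each capture left out and 0.038 with orbital captures 3 and 4 left out, and the import median -0.09 to -0.02 and, with R3 alone, 0.0060. Over the 25 alternatives, Mrps6 passed in 24, Timm8a1 in 21, Mrps25 in 16, Mrpl50 in 14 and Mrpl15 and Timm29 in 13 each, with their directions kept in all 25. Tomm20 turned to 0.031 with R3 alone, and Tomm7 (0.02) to -0.0048 with R3 alone, between -0.088 and 0.15 with each capture left out and 0.26 with orbital captures 3 and 4 left out. Settings with fewer captures have fewer samples to test, and for the other changes the cause was not tested. Among tested members, 2 (Mrpl38 and Tomm40l) had a capture under the highest unspiked bacterial control, so depth of signal limits few of them.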

Other observations

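A probe set annotated to Timm23, the channel of the inner membrane presequence translocase, and also to Timm23b and a pseudogene, was left out because it has several symbols. It read 1700, 1219, 1735 and 1865 in the global captures and 1201, 999.8, 1334 and 1279 in the orbital captures. Orbital capture 3 and orbital capture 4 exceeded global capture 2, so the layers overlapped. The log2 difference was -0.43 ± 0.15 (SE, n = 4 per layer, limma adjusted p = 0.116).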
